A study of Mus musculus with 15 samples.

Results

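Glutathione S-transferases join the tripeptide glutathione to reactive and electrophilic molecules, which are then carried out of the cell. The cytosolic enzymes are grouped into classes by sequence (mu, alpha, pi, theta, zeta and omega), and several of their genes are textbook targets of the antioxidant factor NFE2L2 and the xenobiotic receptor AhR. Here 10 of these genes (Gstm1, Gstm2, Gstm5, Gsta3, Gsta4, Gstp1, Gstt1, Gstt2, Gstz1 and Gsto1), chosen by gene name, were followed in mouse mammary tissue out of 52526 genes in all. With all 15 mice, none of the 10 passed either of the tests used below for a difference in mean log2(CPM) between BDE-47 and vehicle mice. Of the 10, 6 had the higher mean with BDE-47 (49.1% of all tested genes did) and 4 the lower. In mean log2(CPM) the largest difference was that of Gsta4, listed at 0 in 4 of 8 vehicle mice and present in all 7 BDE-47 mice, and the next was that of Gsto1, which was lower in mean with BDE-47. As a ratio of mean CPM, the difference of Gsta4 was the smallest of the 10.

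The mice were female nu/nu nude mice, which lack a thymus and most T cells. Pumps placed under the skin released BDE-47, a brominated flame retardant of the polybrominated diphenyl ether family, into 7 mice for 16 weeks. The carrier was PEG300 with 1% DMSO, and the pumps of the 8 vehicle mice held nothing else. Normal tissue of the left 4th mammary fat pad was then sequenced, 1 library per mouse. The labels give no age, no dose and not which mice carried a xenograft, which the study's methods treat as a covariate, so the fits below do not include it.

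Expression is given as log2(CPM), the log2 of read counts scaled to 1 M mapped reads per library, and every gene under 1 CPM is listed at 0, called the floor below. The libraries are made from the 3′ ends of transcripts, about 1 read per transcript, so levels are not divided by transcript length. Depth was 12.0 to 16.5 M mapped reads in vehicle mice and 10.1 to 19.6 M in BDE-47 mice. At this depth counting error was small, between 0.03 and 0.13 on the log2 scale for the members at their median read numbers, and below the spread between mice for each of them. Marker genes placed adipocytes in all 15 mice, but 3 mice stood apart in other markers. In vehicle replicates 6 and 8 all 8 B cell markers were above the floor, with summed levels of 9.35 and 9.50 on the log2(CPM + 1) scale against at most 3.44 in any other mouse, and their adipocyte sums were 8.59 and 9.90 against 11.9 to 14.5 elsewhere. In BDE-47 replicate 6 the skeletal muscle sum was 16.6 against at most 7.47 elsewhere. In bulk tissue, fewer cells of a type and less RNA per cell cannot be told apart.

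The genes lie on 6 chromosomes of GRCm38.p6, in the RefSeq annotation. The mu class genes lie in the same region of chromosome 3, at chr3:107895854-107898685 (Gstm5), chr3:107981702-107986420 (Gstm2) and chr3:108012250-108017973 (Gstm1), and the theta class genes at chr10:75783813-75798584 (Gstt1) and chr10:75831842-75837419 (Gstt2). Gsta3 is at chr1:21240565-21265575, Gsta4 at chr9:78191966-78209349 and Gstz1 at chr12:87147161-87164723. Gstp1 at chr19:4035411-4037912 and Gsto1 at chr19:47854973-47864790 share a chromosome but are far apart. Reads from near-identical copies limit some of them. Of the distinct 50-base stretches in the last 500 bases of Gstp1 transcripts, 63.4% also occur in transcripts of Gstp2 or a Gstp pseudogene, and the share was 21.8% for Gstm1, 12.7% for Gstm2, 0.39% for Gstt2 and 0% for the other 6. Values of Gstp1, and to a lesser degree of Gstm1 and Gstm2, are therefore uncertain to the extent that the counting split such reads.

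RefSeq promoter sequences, 250 bases before to 50 after the transcription start, were matched for 8 of the 10 genes, with 2 promoters each for Gstm1 and Gstz1 and 10 promoters in all. For Gsta4 and Gstt2 no promoter sequence was available, so the counts below say nothing about them. The core of the antioxidant response element, to which NFE2L2 binds with small MAF proteins, was searched on both strands as TGACNNNGC. It occurs in 2 of the 10 promoters, those of Gsta3 and Gstm5, and in 12.4% of all 32851 RefSeq promoters of this length. The core of the xenobiotic response element, to which AhR binds with ARNT, was searched as GCGTG and occurs in 4 of the 10 (both of Gstm1, and those of Gstm5 and Gstp1), against 32.4% of all promoters. The 2 promoters of Gstm1 overlap and their match is the same site, so by gene the count was 3 of 8. A looser form of the antioxidant core, TGANNNNGC, which takes in every match of the stricter one, occurs in 6 of the 10 (Gsta3, Gstm5, Gstt1, Gstp1 and both of Gstz1), against 41.3% of all promoters. In Gstp1 a match that begins 74 bases before the start reads TGAGTCAGC, with G where the stricter form has C. The promoters that hold the antioxidant core are shown in full because NFE2L2 signalling was a question of the study, and the upstream of the promoters of Gstz1, the member with the highest mean level, is shown beside them as one without the stricter core, though it holds 2 matches of the looser form. Capitals mark the match to TGACNNNGC, and each is read 5′ to 3′ on the plus strand of GRCm38.p6, at chr1:21240335-21240634, chr3:107895604-107895903 and chr12:87146915-87147214.
Gsta3: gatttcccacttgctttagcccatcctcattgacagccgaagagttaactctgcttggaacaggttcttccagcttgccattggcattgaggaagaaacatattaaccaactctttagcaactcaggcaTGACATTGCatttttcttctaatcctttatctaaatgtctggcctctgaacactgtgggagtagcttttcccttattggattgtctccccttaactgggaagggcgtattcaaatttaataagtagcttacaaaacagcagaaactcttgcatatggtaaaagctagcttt
Gstm5: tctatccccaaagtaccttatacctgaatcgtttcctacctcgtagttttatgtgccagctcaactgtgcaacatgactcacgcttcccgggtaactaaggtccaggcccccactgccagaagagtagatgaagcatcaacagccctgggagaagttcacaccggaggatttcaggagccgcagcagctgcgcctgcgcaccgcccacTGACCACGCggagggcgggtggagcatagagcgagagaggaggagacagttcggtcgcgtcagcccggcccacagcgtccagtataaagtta
Gstz1: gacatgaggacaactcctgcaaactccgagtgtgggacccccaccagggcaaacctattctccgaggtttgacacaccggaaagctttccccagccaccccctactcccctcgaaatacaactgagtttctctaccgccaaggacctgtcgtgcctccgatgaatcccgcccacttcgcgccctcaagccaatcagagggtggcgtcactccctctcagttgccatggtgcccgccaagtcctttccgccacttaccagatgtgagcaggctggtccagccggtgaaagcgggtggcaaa
In Gsta3 the match begins 121 bases before the start. In Gstm5 it begins 42 bases before the start and its last bases overlap a GCGTG match on the minus strand. Both genes are among the 3 members with the lowest mean levels, and neither passed a test between the groups (below).

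Over all 15 mice, mean levels ran from 6.46 for Gstz1 and 6.24 for Gstm1, through 5.26 for Gsto1, 5.18 for Gstm2, 4.72 for Gstt2 and 3.97 for Gstt1, to 3.03 for Gsta4, 2.36 for Gstp1, 2.25 for Gsta3 and 1.96 for Gstm5, all in log2(CPM). No 2 neighbours in this order differed by more than the SD of their difference over mice. Gstm1, Gstm2, Gstz1 and Gsto1 were above the floor in all 15 mice. Of the 150 member values 20 were at 0, or 13.3%, against 20.7% of the values of all tested genes.

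To test for an effect of BDE-47 on each gene, limma was fitted over the 9506 genes that reached 1 CPM in 7 mice or more, with Benjamini-Hochberg adjustment over all of them, and each member was also given the exact permutation test over mice (two-sided, unadjusted where not said otherwise, smallest possible p 0.0001554). All 10 members passed the filter. By limma 0 of 10 had an adjusted p under 0.05 and 0 of 10 an unadjusted p under 0.05, and the exact test also gave 0 of 10. Over all tested genes the limma share was 0.0% after adjustment and 4.65% before it, and the exact test gave 4.42% before adjustment. The lowest adjusted p of any gene was 0.982. In 0 of 10 members did the groups fail to overlap, against 0.0105% of tested genes. By size alone, 1 member was more than 2-fold higher with BDE-47 and 1 more than 2-fold lower, against backgrounds of 13.0% and 13.2%. The median difference was 0.43 over the members and -0.02 over all tested genes. The median over the members depends on vehicle replicates 6 and 8. Without them the differences were -0.16 for Gstm5, -0.45 for Gstt1, -0.02 for Gstz1 and 0.11 for Gsta3. Gstm1 and Gsta4 stayed higher with BDE-47, and no member went from lower to higher.

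**Figure D1:**
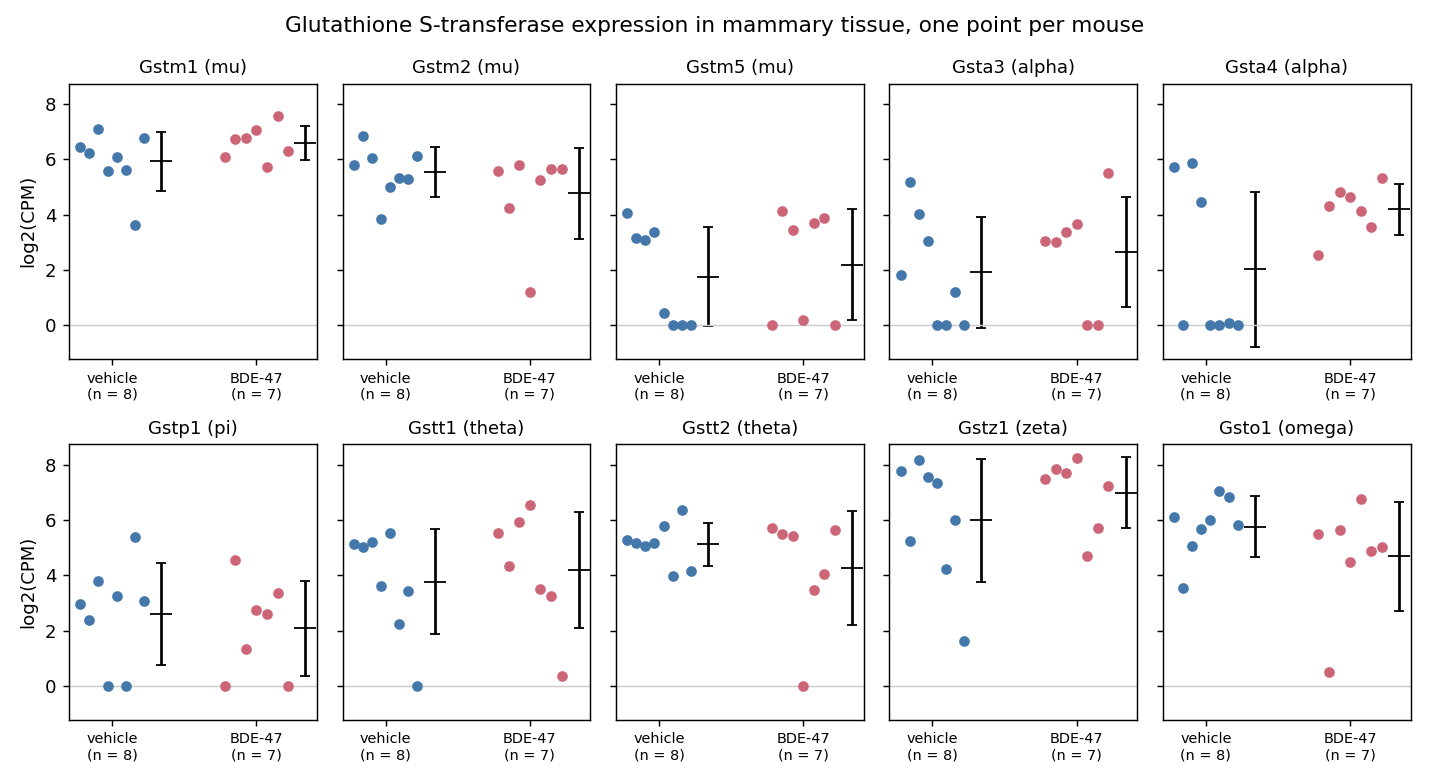
Expression of the 10 glutathione S-transferase genes in log2(CPM) on the y axis, 1 point per mouse, for vehicle (n = 8) and BDE-47 (n = 7), with the mean and SD of each group beside the points and 0 marking genes under 1 CPM. The groups overlap in all 10 panels, and Gsta4 is at 0 in 4 vehicle mice and in none with BDE-47.

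The mu class enzymes conjugate glutathione to a wide range of electrophiles. Gstm1 was between 3.63 and 7.10 in vehicle mice (median 6.16) and between 5.72 and 7.55 in BDE-47 mice (median 6.74). Its means were 5.93 ± 1.07 (SD, n = 8) and 6.60 ± 0.62 (n = 7), a difference of 0.67 with SE 0.49 (exact permutation p = 0.17, limma adjusted p = 0.982). The lowest value, 3.63, belonged to vehicle replicate 7, without which the difference was 0.34. Without vehicle replicate 3 it was 0.84 (exact permutation p = 0.0728). Gstm2 ranged from 3.85 to 6.85 in vehicle mice (median 5.56) and from 1.22 to 5.81 in BDE-47 mice (median 5.57). In mean it was lower with BDE-47 by 0.76 (difference -0.76, SE 0.65, exact permutation p = 0.312), while the medians were about equal. A single mouse, BDE-47 replicate 4 at 1.22, set most of that difference, which was -0.17 without it. Without vehicle replicate 4 the difference was -1.005 (exact permutation p = 0.132). Gstm5, an isoform best known from brain and testis, was at 0 in 3 vehicle and 2 BDE-47 mice and reached 4.05 and 4.13. Its difference was 0.43 (SE 1.03, exact permutation p = 0.658) with all mice and -0.16 without vehicle replicates 6 and 8, both of which were at 0.

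Alpha class enzymes act on lipid peroxidation products, and Gsta4 is known for its preference for 4-hydroxynonenal, an aldehyde made from oxidised fatty acids. Vehicle mice were split for Gsta4: replicates 1, 3 and 4 had 5.74, 5.88 and 4.45, replicate 7 had 0.09, and replicates 2, 5, 6 and 8 were at 0. The BDE-47 mice lay between 2.53 and 5.31 with a median of 4.30. In reads, the 3 high vehicle mice had 821, 971 and 306 and the BDE-47 mice 58 to 481, so that 3 of 8 vehicle mice lay within or above the BDE-47 range. The means of 2.02 ± 2.79 (SD, n = 8) and 4.18 ± 0.92 (SD, n = 7) differed by 2.16 (SE 1.11, 95% interval -0.07 to 4.40), which did not pass limma (p = 0.0573, adjusted p = 0.982) or the exact permutation test (p = 0.0752). Presence above the floor, 4 of 8 against 7 of 7 mice, gave p = 0.0769 by Fisher's exact test (two-sided, unadjusted). The size of the difference depends on how mice at 0 are read. On the linear scale the group means were 16.9 and 21.1 CPM, a log2 ratio of 0.32, because the 2 highest mice were vehicle mice. Leaving out vehicle replicate 1, 3 or 4 brought the unadjusted exact permutation p to 0.0227, 0.0198 or 0.0478, and leaving out replicates 6 and 8 brought the difference to 1.49 (exact permutation p = 0.216). Among 2054 tested genes of like mean (within 0.5 on the log2 scale), 89.8% had a smaller SD over mice than Gsta4.

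Gsta3 was at 0 in 3 of 8 vehicle and 2 of 7 BDE-47 mice. Where present it reached 5.17 in vehicle and 5.51 in BDE-47 mice, with means over all mice of 1.91 ± 2.00 (SD, n = 8) and 2.65 ± 2.00 (SD, n = 7). The difference in mean of 0.75 (SE 1.09, exact permutation p = 0.469) was 0.11 without vehicle replicates 6 and 8, which were both at 0. Gstp1, the pi class enzyme and a regulator of stress kinases, was at 0 in 2 mice of each group. It ranged up to 5.39 in vehicle mice (median 3.02) and up to 4.54 in BDE-47 mice (median 2.60), a difference in mean of -0.52 (SE 1.06, exact permutation p = 0.572). Vehicle replicate 7 held the highest Gstp1 and the lowest Gstm1, and without it the Gstp1 difference was -0.13. Without BDE-47 replicate 2 that difference was -0.93.

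The theta class enzymes act on small halogenated and sulfate-bearing molecules. Gstt1 lay between 0 and 5.52 in vehicle mice (median 4.32) and between 0.36 and 6.53 in BDE-47 mice (median 4.34). Its difference of 0.43 (SE 0.93, exact permutation p = 0.675) took either sign by mouse, at -0.11 without vehicle replicate 8 and 1.07 without BDE-47 replicate 7. Gstt2 was tight in vehicle mice, at 3.99 to 6.37 (median 5.16), and ranged from 0 to 5.72 in BDE-47 mice (median 5.44). The mean was lower with BDE-47 (difference -0.85, SE 0.74, exact permutation p = 0.339) and the median higher, since BDE-47 replicate 4 was at 0. Without that mouse the difference in mean was -0.14, and without BDE-47 replicate 1 it was -1.10.

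Gstz1, the zeta class enzyme, is maleylacetoacetate isomerase and takes part in the breakdown of tyrosine and phenylalanine. It was between 1.63 and 8.16 in vehicle mice (median 6.66) and between 4.71 and 8.26 in BDE-47 mice (median 7.49). The difference of 1.00 (SE 0.68, 95% interval -0.37 to 2.37, exact permutation p = 0.332) rested on the vehicle mice with B cell markers: their Gstz1 levels were 4.22 and 1.63, and without both the difference was -0.02 (exact permutation p = 0.973). Without vehicle replicate 8 alone it was 0.38, and without BDE-47 replicate 5 it was 1.38. Its SD over mice was larger than that of 95.9% of 564 tested genes of like mean, although it was read deeply, with a median of 1808 reads per mouse. Gsto1, the omega class enzyme, acts as a dehydroascorbate reductase and thioltransferase. Vehicle mice had 3.54 to 7.05 (median 5.90) and BDE-47 mice 0.51 to 6.76 (median 5.02), and only replicate 5 of the 7 BDE-47 mice exceeded the median of vehicle. The means were 5.76 ± 1.09 (SD, n = 8) and 4.68 ± 1.98 (SD, n = 7). That difference of -1.08 (SE 0.69, 95% interval -2.48 to 0.33) did not pass limma (p = 0.129, adjusted p = 0.982) or the exact permutation test (p = 0.216). BDE-47 replicate 2, at 0.51, was the lowest, and without it the difference was -0.38. It was -1.39 without vehicle replicate 2 (exact permutation p = 0.0554) and -1.42 without BDE-47 replicate 5 (exact permutation p = 0.0799).

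**Figure D2:**
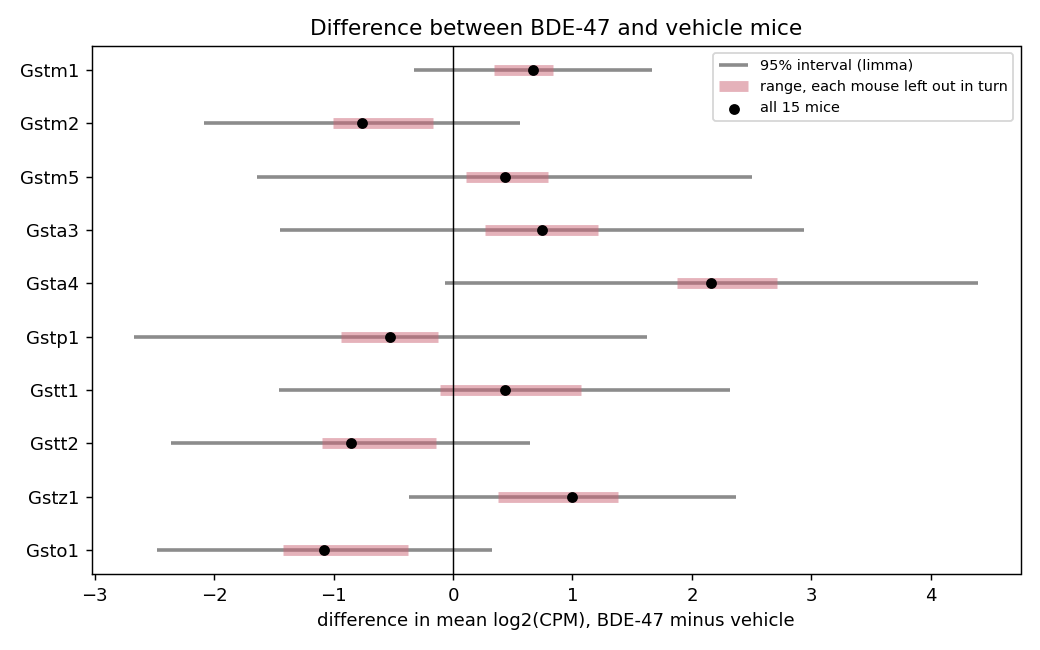
Difference in mean log2(CPM), BDE-47 minus vehicle, on the x axis for each gene. Points are all 15 mice, thin lines the 95% limma interval and thick bars the range when each mouse is left out in turn. All 10 intervals include 0, and the thick bar crosses 0 for Gstt1.

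Summed over the 10 genes, vehicle mice held 260.6 to 690.9 CPM (median 379.6) and BDE-47 mice 283.9 to 601.0 CPM (median 452.5). The make-up of that sum differed more between mice than its size. Gstz1 was the largest part in 9 mice, Gsto1 in 3 (vehicle replicates 6 and 7 and BDE-47 replicate 5), Gstm1 in 2 (vehicle replicate 8 and BDE-47 replicate 6) and Gstm2 in 1 (vehicle replicate 2). Gstz1 made up 1.17% to 48.7% of the sum in vehicle mice (median 27.1%) and 9.19% to 50.9% in BDE-47 mice (median 35.9%). Gsto1 made up 3.24% to 50.7% and 0.289% to 38.2% in the same order.

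**Figure D3:**
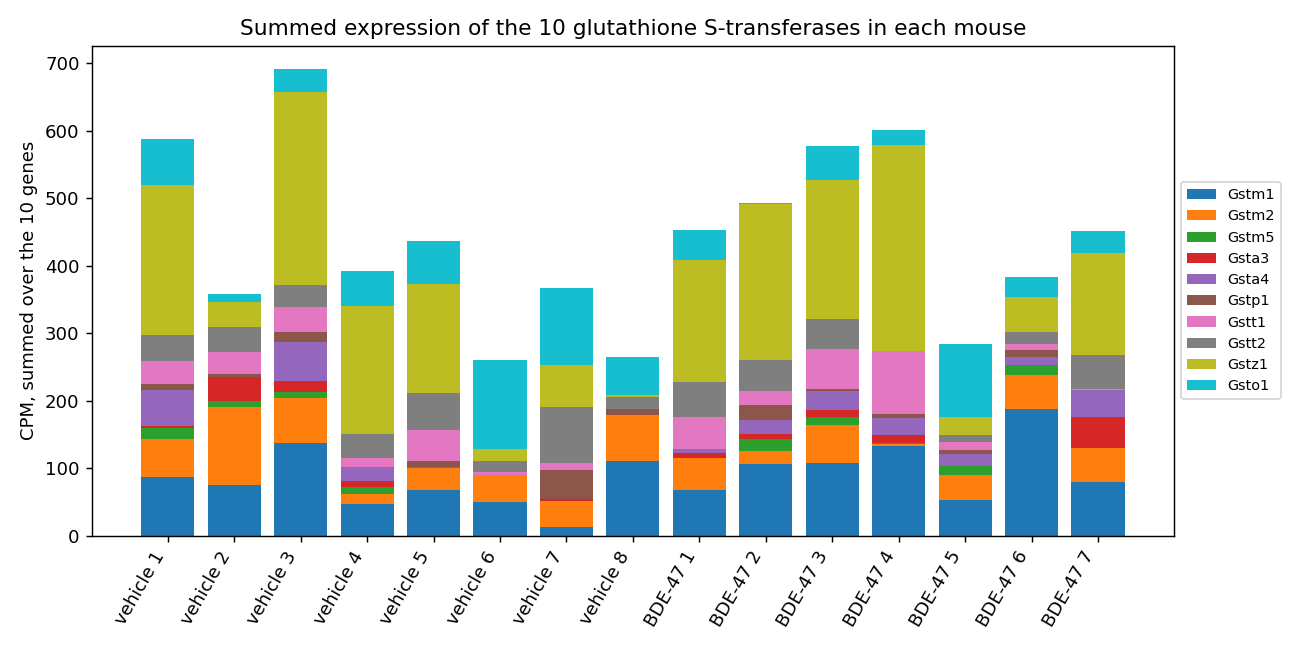
CPM of the 10 genes stacked for each mouse, with vehicle replicates 1 to 8 and BDE-47 replicates 1 to 7 along the x axis and summed CPM on the y axis. Gstz1 is the largest part in 9 of 15 mice, and the sums of the groups overlap.

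The members did not vary as 1 group. Over the 45 pairs, Spearman's rho across the 15 mice had a median of 0.14 and ran from -0.61 to 0.73. The highest were Gstz1 with Gsta4 and with Gstt1, both at 0.73, then Gsta3 with Gsta4 at 0.55 and with Gstz1 at 0.53. Gsto1 ran the other way, at -0.61 with Gsta3 and -0.60 with Gstm1. These values describe 15 mice of 2 groups, 3 of which stood apart in their markers, and were not tested.

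Expression of each member was also set beside the summed level of 12 cell type marker lists, 120 relations in all, with permutation p-values (two-sided, 100000 resamples) adjusted over the 120. Of these, 3 passed by Pearson's r and 1 by Spearman's rho. Gsta3 moved with the 6 fibroblast markers (r = 0.84, permutation p = 0.00016, adjusted 0.0096, and rho = 0.85, permutation p = 0.00018, adjusted 0.0216). Without the 2 mice farthest from the median of the fibroblast sum, vehicle replicates 2 and 6, r was 0.78, and it was 0.95 within vehicle mice and 0.77 within BDE-47 mice. Gstz1 moved with the 8 adipocyte markers (r = 0.82, permutation p = 0.00109, adjusted 0.0436) and with the 5 erythroid markers (r = 0.81, permutation p = 0.00012, adjusted 0.0096), but not after adjustment by rho (0.71 and 0.64, adjusted permutation p = 0.245 and 0.358). In both, the 2 farthest mice were vehicle replicates 6 and 8, and without them r was 0.68 and 0.63. Neither the fibroblast nor the adipocyte sum passed a test between the groups (exact permutation p = 0.724 and 0.761), and the keratinocyte sum was higher with BDE-47 (5.83 in vehicle and 6.74 in BDE-47 mice, exact permutation p = 0.0446, unadjusted over 12 lists). With the adipocyte sum of each mouse as a covariate in limma, a fit chosen after seeing the data, the difference between the groups was 0.77 for Gstz1 and 0.60 for Gsta3, and limma called 0 genes, with 507 at an unadjusted p under 0.05. No fit was made with the fibroblast or erythroid sums.

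**Figure D4:**
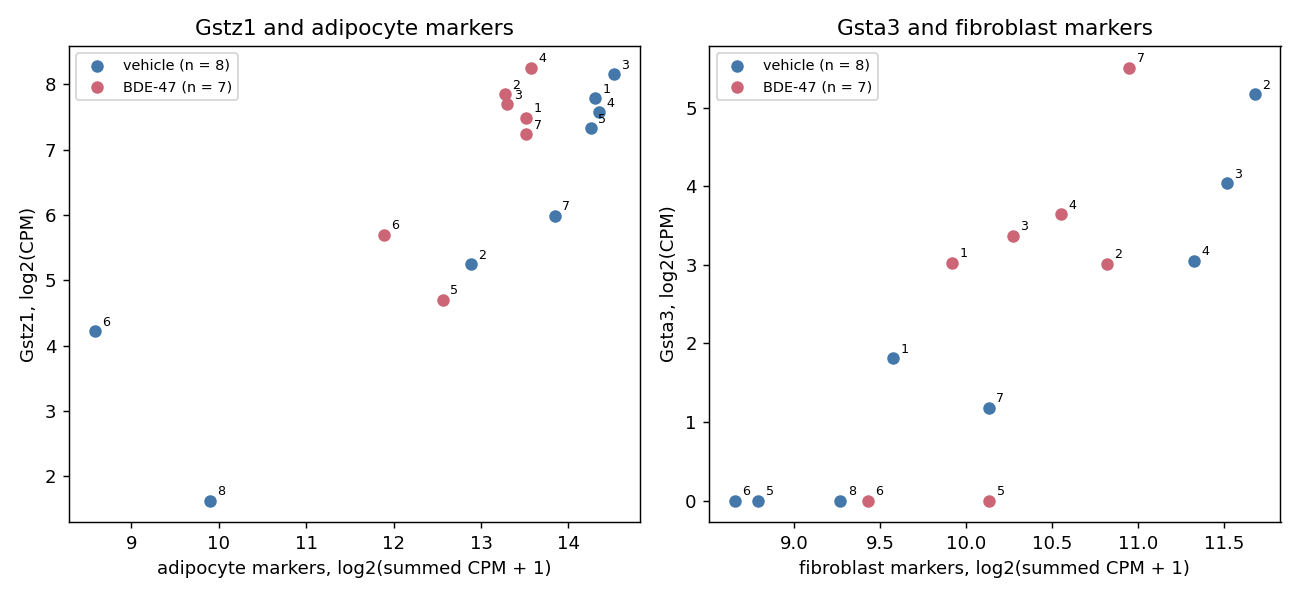
Left, Gstz1 in log2(CPM) against the summed adipocyte markers, and right, Gsta3 against the summed fibroblast markers, both sums as log2(CPM + 1), with 1 point per mouse and its replicate number beside it. Vehicle replicates 6 and 8 lie far to the left of the other mice in the adipocyte plot, while in the fibroblast plot the 15 mice spread from 8.66 to 11.7 and the 5 mice without Gsta3 have sums of at most 10.1.

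For the 4 members above the floor in all mice, the 3 genes with the most similar pattern were taken by Spearman's rho over the 15 mice among 2576 other genes above the floor in all of them. For Gstz1 these included Lipe, the hormone-sensitive lipase of fat cells (0.94), and Adrb3, the adipocyte beta-3 adrenergic receptor (0.92). They were Map7d1 (0.86), Ppp2ca (0.78) and Pfkp (0.78) for Gstm1. For Gstm2 they were Eid1 (0.79), Mtdh (0.78) and Sirt2 (0.78), and for Gsto1 Utp3 (0.79), Ier5 (0.78) and Plrg1 (0.76). Gsta3, at 0 in 5 mice, is outside that rule. Its closest genes, chosen after their values were seen, were the acute-phase protein gene Hp (0.92) and the metallothionein genes Mt2 (0.91) and Mt1 (0.88). Gstt1, also outside the rule, had a closest gene at 0.925, so a value this high was not particular to Gsta3.

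The other steps of the pathway were read from 4 lists with 39 tested genes, of which 0 had an adjusted p under 0.05 and 1 an unadjusted limma p under 0.05. Over all tested genes 49.1% had the higher mean with BDE-47. The list of other glutathione transferases and related proteins had 20 genes, of which 19 were in the data and 9 were tested, with 4 higher and 5 lower in mean (median -0.02). The ends of that list were Gstk1, the mitochondrial kappa enzyme, at 0.55 (SE 0.68), and Alox5ap, which presents arachidonic acid to 5-lipoxygenase, at -2.29 (SE 1.17, limma p = 0.0567, exact permutation p = 0.088). Alox5ap was highest in vehicle replicate 8, at 6.98. Without vehicle replicates 6 and 8, Alox5ap was at -1.75 (exact permutation p = 0.202) and Gstk1 at 0.38. Glutathione supply had 12 of 18 tested, with 5 higher and 7 lower (median -0.12). Its ends were Gss, glutathione synthetase, at 1.17 (SE 1.05), and Glrx, a glutaredoxin that removes glutathione from proteins, at -1.79 (SE 0.88). Glrx was above the floor in 5 of 8 vehicle and 3 of 7 BDE-47 mice and was the gene with the unadjusted limma p under 0.05 (0.0481, adjusted 0.982, exact permutation p = 0.0654). Its highest levels, 5.17 and 4.52, were those of vehicle replicates 6 and 8, and without these mice its difference was -0.94 (exact permutation p = 0.249). In the same setting Gss was at 0.59.

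Export and processing of conjugates had 9 of 13 listed genes tested, with 5 higher and 4 lower (median 0.07), from Cndp2, a dipeptidase, at -1.46 (SE 1.11) to Abcc5, an efflux pump, at 1.31 (SE 1.02). Without vehicle replicates 6 and 8, Cndp2 was at -0.75 and Abcc5 at 1.79. The regulators had 9 of 12 tested, with 4 higher and 5 lower (median -0.10). Arnt, the partner of AhR, was at the upper end at 0.55 (SE 1.12), and at -0.06 without vehicle replicates 6 and 8. Nfe2l2 itself was at the lower end. Its level ranged from 3.25 to 6.39 in vehicle mice and from 0 to 6.19 in BDE-47 mice, with means of 5.09 ± 0.95 (SD, n = 8) and 3.91 ± 2.03 (SD, n = 7), a difference of -1.18 (SE 0.77, exact permutation p = 0.166, limma adjusted p = 0.982). BDE-47 replicate 7 was the mouse at 0, and without it the difference was -0.53. The difference was -1.56 without BDE-47 replicate 4 (exact permutation p = 0.0526), and -1.18 without vehicle replicates 6 and 8. The RNA level of Nfe2l2 does not measure the activity of its protein. The study scored NFE2L2 signalling from a set of responsive genes, with xenograft as a covariate, and reported it higher with BDE-47. That score was not computed here. In none of the 4 lists did a gene pass the adjusted threshold of limma, and by the unadjusted exact permutation test 0 of the 39 passed.

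**Figure D5:**
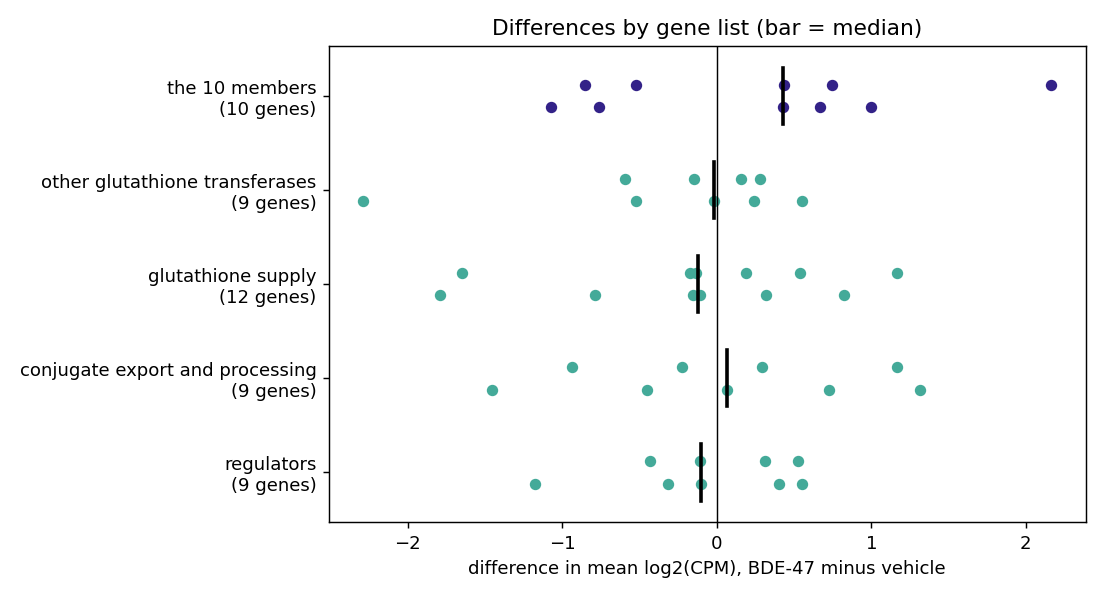
Difference in mean log2(CPM), BDE-47 minus vehicle, on the x axis for the 10 members and for the tested genes of 4 related lists, 1 point per gene with a bar at the median. With all 15 mice the list medians lie between -0.12 and 0.07 and that of the members at 0.43, and each row holds genes on both sides of 0. Without vehicle replicates 6 and 8, which is not drawn, the members Gstm5, Gstt1 and Gstz1 are below 0.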

How the data were processed

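Mammary RNA of 15 mice was measured with QuantSeq 3′ FWD. The authors normalized reads to CPM, with STAR 2.5.3a and GRCm38 named in the submitters' processing notes, and the deposited values are log2(CPM) with genes under 1 CPM at 0. Both the log2 scale and the floor were inferred from the deposited numbers. Of 52636 entries per mouse, 110 repeated names were dropped. Depth was recovered from the spacing of CPM values, which were whole reads in 100% of cases (tolerance 0.1). Raw counts were not used here, and no count test was run.

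Groups came from the labels. Genes that reached 1 CPM in 7 mice or more were fitted with limma 3.58.1 (trend) in R 4.3.3, and exact permutation tests used all 6435 splits, in Python 3.11.15 with scipy 1.17.1. The tests were tested on simulated data. Promoters and coordinates are from RefSeq (GRCm38.p6), and shared 50-base stretches from GENCODE transcripts. The members and lists were chosen with earlier results of these data known. Named genes are the members, the ends of each list, list genes with an unadjusted p under 0.05, and the 3 most alike genes of members above the floor in all mice, of which 1 is not reported here. Genes outside this rule (Hp, Mt1, Mt2, Mgst1, Gstt3, Chchd2 and Wfdc18) were chosen after their values were seen. Alternatives were other pseudocounts, scalings, filters and summaries, the replicate block, an adipocyte marker covariate (added after seeing the data), and mice left out.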

Additional observations from a re-analysis of the deposited data

Results flagged for a closer look

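Dixon's criterion compared the highest or lowest mouse with the others in 44 sets of values, each within 1 group of mice. Of these sets 20 were for the members and the rest for marker sums. Independent, normally distributed values would meet the criterion in about 1 of 20 sets. Some sets here hold values at the floor and the same mice recur across sets, so that rate is no background for the count. The criterion was met in 10 sets. Among the members these were low values of Gstm1 in vehicle replicate 7 (3.63), Gstm2 in BDE-47 replicate 4 (1.22), Gstt2 in the same mouse (0) and Gsto1 in BDE-47 replicate 2 (0.51), all in log2(CPM).

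Of the marker sums, in log2(CPM + 1), BDE-47 replicate 6 was far above its group in skeletal muscle (16.6) and far below it in basal and myoepithelium (4.97), endothelium (5.40), keratinocyte (5.73) and luminal epithelium (7.17). The B cell sum of BDE-47 replicate 3 was 1.75 while the other 6 mice of its group were at 0, from 1 marker above the floor.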

How the results depend on the processing

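Under 26 settings of the fit across genes (the reported one included), the lowest adjusted limma p was 0.0316, and the number of genes with an unadjusted p under 0.05 ran from 345 to 507 in the 24 settings that tested the same 9506 genes (573 of 16301 with no filter). With the adipocyte markers as a covariate 0 genes were called (lowest adjusted p 0.222). Genes were called in 1 setting: without vehicle replicates 6 and 8 and BDE-47 replicate 6, a choice made after seeing the data, 2 genes passed (Chchd2 and Wfdc18, named after their values were seen), neither a member. The number of members past 2-fold was 1 with log2(CPM + 1), 4 with log2(CPM + 0.1) and 0 with the ratio of mean CPM, and ran from 1 to 4 as each mouse was left out. The number with an unadjusted exact p under 0.05 was 1 with log2(CPM + 0.1) (Gsta4) and 0 or 1 as each mouse was left out. Shares over all tested genes were taken for these counts in the reported setting only (13.0% and 13.2% past 2-fold, 4.42% by the exact test). The counts in other settings thus have no background beside them and are not read as a result about the members. Of 90 member differences under other settings 8 changed sign: Gstt1 at -0.11 with the replicate block, which drops the unpaired vehicle replicate 8 and gives the same value as leaving that mouse out, -0.45 without vehicle replicates 6 and 8 and -0.29 without BDE-47 replicate 6 as well; Gstm5 at -0.16 and -0.43 and Gstz1 at -0.023 in the same settings (Gstz1 in the first of them only); and Gstm2 at 0.013 and Gstt2 at 0.28 by medians. Of 150 with a single mouse left out, 1 did (Gstt1, which ran from -0.11 to 1.07). The deposited titles number the mice in a single series across both groups, and the BDE-47 mice were renumbered from 1 here. No label therefore pairs mice between the groups, and mice of the same number were not alike (correlations of -0.02 to 0.05 over 7 pairs, 0 above 0.1). The replicate block thus matched mice arbitrarily. It called 0 genes, with 370 at an unadjusted p under 0.05. A value at the floor hides how far below 1 CPM a gene lies.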

Other observations

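Some transferases outside the 10 were low in the same vehicle mice as Gstz1, and were chosen after their values were seen. Mgst1, a microsomal transferase, was at 2.35 and 5.14 in vehicle replicates 6 and 8 and between 7.45 and 8.99 in the other 6 vehicle mice, in log2(CPM). Gstt3, a theta class enzyme, was at 4.17 and 2.67 in those 2 mice and between 6.52 and 7.46 in the others. In BDE-47 replicate 6, Mgst1 was at 5.81 and Gstt3 at 4.12, each the lowest of its group. The group means differed by 0.24 (SE 0.62) for Mgst1 and by -0.02 (SE 0.60) for Gstt3, with limma adjusted p = 0.994 and 1.00.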
